A study of Mus musculus with 24 samples.

Results

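The nuclear-encoded respiratory chain genes were followed in mouse basophils that had or lacked tristetraprolin (TTP, the protein of the gene Zfp36). Members were taken by a rule on gene symbols, and this set was chosen with earlier results of these data known. The rule took the Nduf genes with the letters a, b, c, s or v and a number, and Ndufab1. It also took the Sdh genes a to d and symbols that begin with Uqcr, Cox4 to Cox8 or Atp5. The rule found 84 of the 15737 genes in the table. By symbol, 38 belonged to complex I, 4 to complex II, 8 to complex III, 15 to complex IV and 19 to the ATP synthase. The test covered 83 of them among 12936 genes. Only Cox6a2 was not tested, since 21 of 24 libraries listed it at 0.

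The respiratory chain passes electrons from NADH and succinate to oxygen across the inner mitochondrial membrane and pumps protons as it does so, and the ATP synthase uses the returning protons to make ATP. Complexes I, III and IV and the ATP synthase join subunits made from nuclear genes with subunits made from mitochondrial DNA, whereas all subunits of complex II are nuclear. Nuclear subunit genes are transcribed in many tissues from promoters that bind NRF1, the ETS factor GABP or YY1. TTP binds AU-rich sequences in 3′ UTRs and speeds the decay of those mRNAs.

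Basophils were grown from bone marrow of wild-type (WT) and TTP-KO (KO) mice for 7 days with 0.3 ng/mL IL-3. All cells received IgE against the hapten TNP at 1 µg/mL and the uridine analogue 4-thiouridine (s4U) at 150 µM from day 6, were enriched for CD49b, and then received the antigen TNP-OVA at 10 ng/mL for 1.5 h with s4U. After washing, cells of each genotype stayed in medium free of both agents for 0, 1, 2 or 4 h (the chase), which gave 8 groups of 3 libraries, named A, B and C as in the table. All groups therefore share IgE, antigen and s4U, and none was left unstimulated. Libraries of mRNA 3′ ends were made from 65 ng of RNA that iodoacetamide (10 mM, 15 min, 50 °C) had alkylated. The labels do not say which part of Zfp36 the KO lacks, or how many mice were used. Separate cultures are not stated either, and p-values here reflect no more than the spread among libraries of a group, which may be technical.

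Promoter sequences are shown for 6 genes whose RNA differed between groups below, or, for Sdha, which stood apart from its complex. Sequences came from RefSeq (GRCm38.p6), where 68 of the 84 genes were matched. The 250 bases before the annotated start are given 5′ to 3′ on the gene's strand, and capitals mark matches to the NRF1 motif (GCGCA, any base, then GCGC) or to the ETS core CCGGAAG on either strand. RefSeq lists 2 starts for Ndufa5, and 1 of them is shown.
Atp5if1 (chr4:132535415-132535664, minus strand): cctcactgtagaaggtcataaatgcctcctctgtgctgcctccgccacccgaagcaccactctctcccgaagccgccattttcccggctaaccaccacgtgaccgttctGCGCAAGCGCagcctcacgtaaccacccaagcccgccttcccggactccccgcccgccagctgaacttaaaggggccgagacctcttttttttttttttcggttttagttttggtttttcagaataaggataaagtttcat
Atp5mc2 (chr15:102671048-102671297, minus strand): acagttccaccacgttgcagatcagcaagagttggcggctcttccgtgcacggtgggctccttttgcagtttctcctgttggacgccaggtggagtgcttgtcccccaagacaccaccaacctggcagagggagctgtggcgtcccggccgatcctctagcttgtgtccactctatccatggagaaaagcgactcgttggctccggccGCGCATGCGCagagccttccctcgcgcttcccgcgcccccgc
Sdha (chr13:74350241-74350490, minus strand): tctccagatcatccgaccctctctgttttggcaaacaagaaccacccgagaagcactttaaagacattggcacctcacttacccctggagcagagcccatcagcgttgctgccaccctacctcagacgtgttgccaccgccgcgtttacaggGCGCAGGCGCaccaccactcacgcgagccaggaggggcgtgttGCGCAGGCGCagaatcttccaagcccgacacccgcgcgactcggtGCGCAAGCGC
Ndufa5 (chr6:24527691-24527940, minus strand): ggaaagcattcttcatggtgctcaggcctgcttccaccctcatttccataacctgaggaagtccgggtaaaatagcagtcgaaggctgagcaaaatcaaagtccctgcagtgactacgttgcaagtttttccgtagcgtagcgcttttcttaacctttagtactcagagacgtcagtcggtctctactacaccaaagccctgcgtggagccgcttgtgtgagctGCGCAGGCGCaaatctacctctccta
Atp5mg (chr9:44920743-44920992, minus strand): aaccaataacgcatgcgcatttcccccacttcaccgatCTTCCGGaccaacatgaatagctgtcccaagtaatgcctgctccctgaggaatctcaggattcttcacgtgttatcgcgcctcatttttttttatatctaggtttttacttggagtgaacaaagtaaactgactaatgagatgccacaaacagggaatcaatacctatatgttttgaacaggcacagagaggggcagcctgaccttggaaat
Cox7a2l (chr17:83514334-83514583, minus strand): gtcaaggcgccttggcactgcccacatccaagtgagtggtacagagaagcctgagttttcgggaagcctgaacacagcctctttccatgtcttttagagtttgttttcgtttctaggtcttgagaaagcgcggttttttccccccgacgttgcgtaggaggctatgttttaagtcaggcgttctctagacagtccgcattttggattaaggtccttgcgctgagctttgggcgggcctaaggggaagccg

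Sdha, which encodes the flavoprotein of complex II, held 3 NRF1 matches, and they began 98, 55 and 10 bases before the start. Atp5if1, Atp5mc2 and Ndufa5 held 1 each, at 141, 42 and 26 bases. Atp5mg held CTTCCGG, the reverse complement of the ETS core, at 212 bases. Cox7a2l held no match to these letters. In windows from 250 bases before to 50 after the start, read on both strands, the NRF1 motif was in 18 of 68 member promoters (26.5%), in 5.19% of 27025 RefSeq genes and in 9.70% of the 12306 genes of the table that were matched. The ETS core was in 16 member promoters (23.5%) against 17.2% of the table's genes. The YY1 motif AAGATGGC was in 10 (14.7%) against 4.57%. At least 1 of the 3 motifs was in 38 of the 68 (55.9%) against 27.8% of the table's genes, and windows with several motifs count under each. A match describes letters and does not show that a factor was bound.

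Libraries held 8839260 to 25372890 reads, with KO 4 h B (8839260) the shallowest and KO 4 h C (10878380) next. Between 125438 and 253943 of a library's reads fell on the 84 genes, which is 0.922% to 1.42% of the total. Levels are given as CPM scaled with TMM factors, which were 0.885 to 0.906 at 0 h and 1.12 to 1.17 at 4 h, so the composition of the RNA moved with time. All 12 basophil markers were present, and their summed level was 48961 to 50371 CPM in WT at 0 h and 32287 to 34930 at 4 h, against 48885 to 49846 and 34518 to 35780 in KO. All 18 monocyte and macrophage markers were present and summed to 713 to 1183 CPM in WT and 1377 to 2497 in KO. Dendritic and B cell markers were also higher in KO, at 239 to 366 CPM against 145 to 204. The 11 neutrophil markers summed to 3887 to 4185 CPM in KO and 4499 to 4917 in WT at 0 h. At 4 h the order was the opposite, at 3387 to 3543 CPM in KO and 2484 to 2747 in WT. Their median log2 difference at 4 h was 0.18. In these mixed RNA samples, fewer cells of a type and less RNA per cell cannot be told apart, and the part of these other cells in the results was not tested. Zfp36 stood at 237 ± 28 CPM (SD, n = 3) in WT and 185 ± 26 in KO at 0 h, and at 68.4 ± 9.9 and 37.5 ± 21.4 at 4 h. Reads at the 3′ end need not cover the deleted part and so do not check the genotype.

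All 5 sets of respiratory chain genes were read well above the lowest levels. The mean level of a member over all libraries ran from 2.62 to 665 CPM over the 83 tested genes, with the median at 92.6 and the quartiles at 51.1 and 185. Ranks between genes are not given, since a 3′ tag count depends on the end of each transcript. No mitochondrially encoded subunit was listed, so the partner subunits from mitochondrial DNA were not analysed here. Many members have near-identical pseudogenes, and the counts show shared reads: 75 of the 84 had values that were not whole, and 61 had more than 10% of such values. Over all members 38.2% of values were not whole, against 12.8% over all genes. For Cox7c, Atp5mc1, Atp5mc2, Atp5mg and Atp5pd no value was whole. The levels of these genes are uncertain to the extent that reads were split between copies.

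The muscle and testis isoforms were low. Cox6a2, the muscle form of Cox6a, had 24 reads in all, 2 in KO 0 h A, 12 in WT 4 h A and 10 in WT 4 h C. Cox7a1, the muscle form of Cox7a, ranged from 0 to 15.2 CPM and passed no test. Cox6b2, the testis form of Cox6b, stood at 31.4, 18.6 and 23.2 CPM in WT at 0 h and at 8.10, 9.95 and 11.9 at 4 h. In KO it stood at 28.3, 23.5 and 23.1 CPM at 0 h and at 7.97, 9.88 and 15.6 at 4 h. Libraries at 4 h lay below those at 0 h in each genotype, but neither change passed edgeR's test (log2 change -1.29 ± 0.47, adjusted p = 0.0502 in WT, and -1.16 ± 0.47, adjusted p = 0.0781 in KO). Cox5b-ps, a pseudogene, and a second Atp5po entry (ENSMUSG00000116933), at 0 to 8.21 CPM, are members by symbol, and the main Atp5po entry is ENSMUSG00000022956.

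Summed over the 84 genes, respiratory chain RNA started at the same level in both genotypes and was lower in WT than in KO at 1 and 4 h. At 0 h the sum was 11548, 12714 and 12128 CPM in WT and 11938, 12476 and 11999 in KO. At 4 h it was 9737, 9688 and 10363 CPM in WT and 11404, 12146 and 11488 in KO. The groups overlapped at 0 h, and at 4 h each KO library lay above each WT library. Means were 12130 ± 583 (SD, n = 3) in WT and 12138 ± 295 in KO at 0 h, and 9929 ± 376 and 11679 ± 407 at 4 h. At 1 h the WT libraries gave 11370, 10245 and 9744 CPM and the KO libraries 12225, 11402 and 11949, without overlap but with KO 1 h B just above WT 1 h A. At 2 h the WT libraries gave 9029, 10324 and 9400 CPM and the KO libraries 11176, 9706 and 11548, which overlapped. The 4 h sums without overlap were those of complexes I, II and IV and of the ATP synthase. For complex III the WT libraries gave 855, 731 and 932 CPM and the KO libraries 963, 837 and 826. No test was run on these sums.

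**Figure D1:**
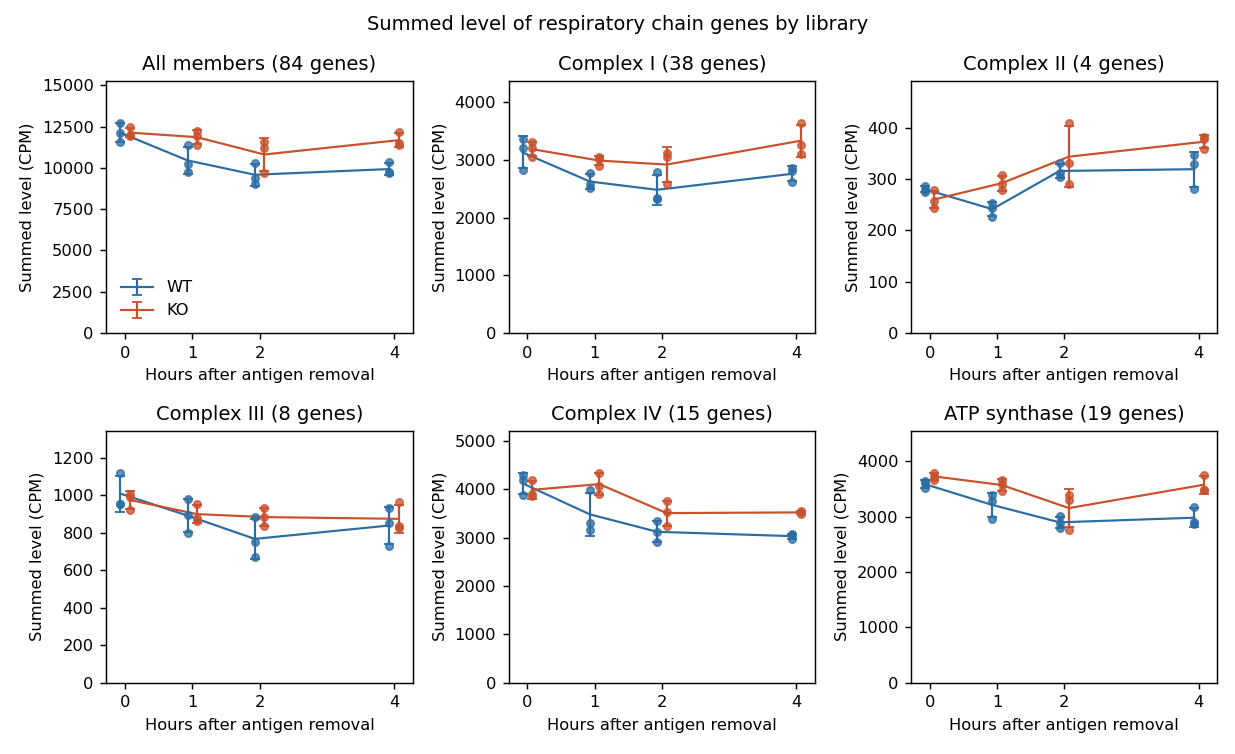
Summed level of the respiratory chain genes in each library, in TMM-scaled CPM, against hours of chase, for all 84 genes and for each complex. Points are libraries, lines join the means of 3 and bars are SD. At 4 h the KO libraries for all 84 genes sit at 11404 to 12146 CPM, above the WT libraries at 9688 to 10363, while those of complex III overlap.

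KO was compared with WT at each time to ask how loss of TTP bears on these RNAs. At 4 h 6 of the 83 tested genes were higher in KO and none was lower: Ndufa5, Ndufb1 and Ndufa6 of complex I, Cox7c of complex IV, and Atp5mk and Atp5mg of the ATP synthase. Of all 12936 genes, 0.943% were called higher and 0.881% lower at 4 h. The members' median difference was 0.22 on the log2 scale, against 0.00 over all genes, and 67 of 83 were above 0. By complex the medians were 0.23 for I, 0.50 for II, 0.06 for III, 0.26 for IV and 0.24 for the ATP synthase, which held 3, 0, 0, 1 and 2 of the calls.

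Ndufb1, an accessory subunit of the membrane arm of complex I, stood at 129, 148 and 143 CPM in WT at 4 h and at 186, 271 and 246 in KO. All KO libraries lay above all WT libraries, with library A the lowest of the KO group. The log2 difference was 0.74 ± 0.16 (SE), with adjusted p = 0.00505 by edgeR. At 0 h Ndufb1 stood at 194, 221 and 207 CPM in WT and at 159, 190 and 189 in KO, so the order of the genotypes was the opposite before the chase, and that earlier difference did not pass the test.

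Ndufa5, an accessory subunit of the matrix arm of complex I, stood at 26.8, 22.5 and 21.4 CPM in WT at 4 h and at 27.8, 70.1 and 53.8 in KO. Library A of KO lay just above the highest WT library and libraries B and C far above it. The difference was 1.10 ± 0.30 on the log2 scale (edgeR, adjusted p = 0.0357). At 0 h the genotypes overlapped, with 47.0, 36.6 and 38.0 CPM in WT and 40.3, 44.4 and 38.8 in KO. Ndufa6, which belongs to the LYR protein family and binds the acyl carrier Ndufab1 in complex I, stood at 108, 130 and 169 CPM in WT at 4 h and at 160, 256 and 216 in KO. Its groups overlapped, with KO 4 h A below WT 4 h C, and the difference was 0.64 ± 0.17 (adjusted p = 0.0365).

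Cox7c, a small membrane subunit of cytochrome c oxidase, stood at 542, 549 and 538 CPM in WT at 4 h and at 678, 768 and 752 in KO. The WT libraries lay close together and the groups did not overlap (log2 difference 0.43 ± 0.12, adjusted p = 0.0486). Atp5mk and Atp5mg encode small membrane subunits of the ATP synthase, which lie in its proton-conducting part. Atp5mk stood at 134, 130 and 162 CPM in WT at 4 h and at 222, 286 and 221 in KO (0.77 ± 0.17, adjusted p = 0.0075). Atp5mg stood at 133, 133 and 145 CPM in WT and at 174, 215 and 219 in KO (0.56 ± 0.15, adjusted p = 0.0412). For each of these genes every KO library lay above every WT library.

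**Figure D2:**
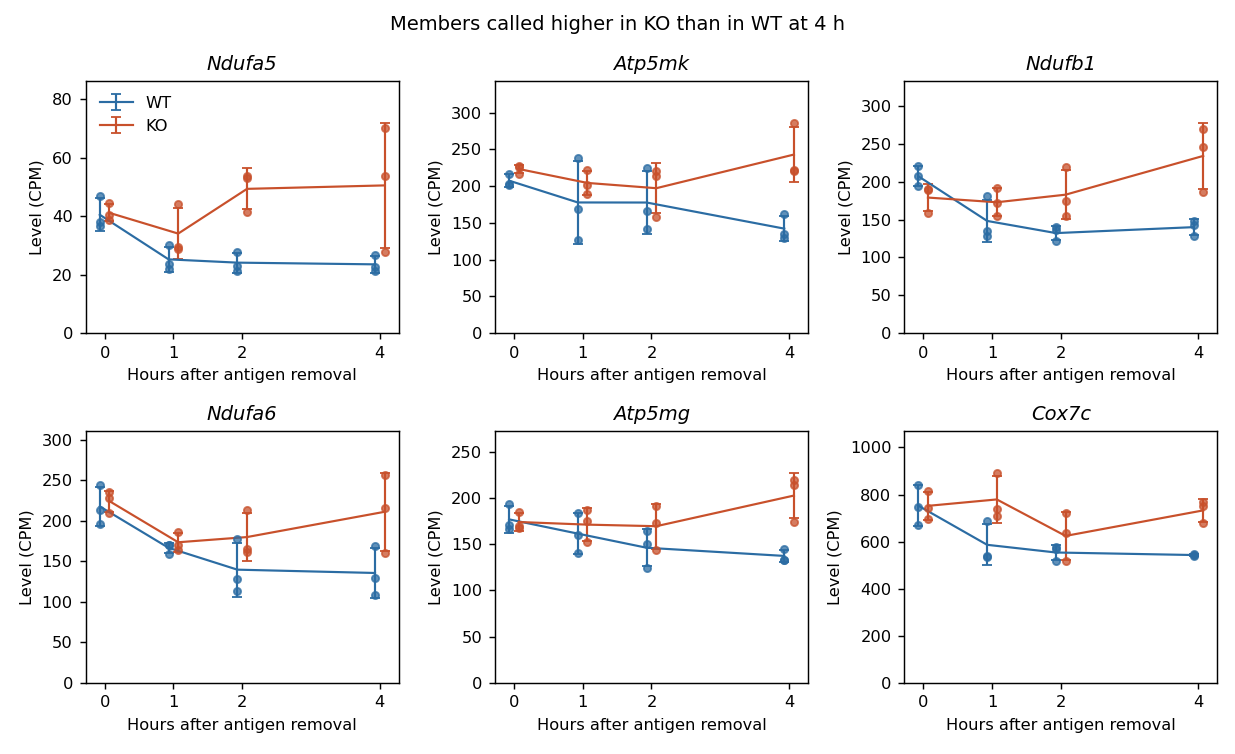
Levels in TMM-scaled CPM of the 6 respiratory chain genes called higher in KO at 4 h, against hours of chase, with points for libraries, lines through the means of 3 and SD bars. At 4 h KO and WT do not overlap for Ndufa5, Atp5mk, Ndufb1, Atp5mg and Cox7c, and overlap for Ndufa6. KO 4 h A is the lowest KO library for Ndufa5, Ndufb1, Ndufa6, Atp5mg and Cox7c.

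The number of calls depended on single libraries, and the sizes of several differences depended on KO 4 h B and C together. Without KO 4 h B edgeR called 0 members at 4 h, against 0.649% of all genes higher and 0.41% lower. At an unadjusted p under 0.05 there were then 13 higher and 2 lower, against 4.32% and 4.48% of all genes. The log2 differences in that fit were 0.63 for Ndufb1, 0.64 for Atp5mk, 0.80 for Ndufa5, 0.48 for Ndufa6, 0.52 for Atp5mg and 0.40 for Cox7c. Without WT 4 h A, WT 4 h B or KO 4 h C edgeR called 2 higher, against 0.772%, 0.631% and 0.545% of all genes. Without KO 4 h A it called 11 higher, against 1.36% of all genes. Ndufb1 and Atp5mk lost their calls with 1 library of the 24 left out, Ndufa6 with 4, Ndufa5 with 5, Atp5mg with 6 and Cox7c with 10. With only the 2 groups compared in the fit edgeR also called 0, with 21 higher and 0 lower at an unadjusted p under 0.05. DESeq2 on all libraries called 12. Shares of all genes under these 2 settings are not given here, so these counts do not compare members with all genes. Without the 2 shallowest KO libraries, B and C, only KO 4 h A was left in its group. The log2 difference of Ndufa5 was then 0.23, that of Ndufb1 0.40 and that of Atp5mk 0.63. Over the 7 alternatives run, the lowest difference was 0.23 for Ndufa6, 0.33 for Atp5mg and 0.31 for Cox7c. Respiratory chain genes took 1.29%, 1.42% and 1.34% of reads in KO 4 h A, B and C, against 1.09% to 1.16% in WT at 4 h. Actb, the cytoskeletal actin gene, took 5.92%, 4.15% and 4.27% in the same KO libraries and 6.61% to 6.86% in WT. The part of depth and composition in the difference was not tested.

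At 4 h 26 of the 83 genes had KO libraries that all lay above the WT libraries, against 7.11% of all genes, and 5 of the 6 called genes are among them. Sdha alone was the other way round, against 6.79% of all genes. At 0 h, 7 lay above and 6 below (6.87% and 6.3% of all genes), at 1 h 10 and 0 (5.82% and 6.31%), and at 2 h 10 and 0 (6.13% and 5.38%). The 26 fell into complex I (11), complex II (2), complex IV (5) and the ATP synthase (8), with none in complex III. For comparison, 32 of 83 cytosolic ribosomal protein genes lay above and 3 below at 4 h, 17 of them called higher, as against 4 and 2 of 37 proteasome genes. Levels above WT in KO were thus also seen among ribosomal protein genes, whose share of called genes was 20.5%.

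Named whether or not they passed, Ndufs1, Ndufv1, Ndufab1, Uqcrc1, Uqcrc2, Atp5f1a and Atp5f1b were not called in KO against WT at any time. Ndufs1 and Ndufv1, which carry iron-sulfur clusters and the NADH site of complex I, stood at 26.3, 30.1 and 28.9 CPM and at 36.8, 67.4 and 71.1 CPM in WT at 4 h, and at 39.4, 25.1 and 24.7 and at 43.7, 49.7 and 29.6 in KO. Uqcrc1 and Uqcrc2, the core proteins of complex III, had libraries of both genotypes between 53.4 and 95.7 CPM at 4 h. Atp5f1a and Atp5f1b, the alpha and beta subunits of the ATP synthase, stood at 201, 186 and 196 and at 272, 212 and 231 CPM in WT at 4 h, and at 251, 204 and 201 and at 214, 234 and 232 in KO. Genotypes overlapped at 4 h for Ndufs1, Ndufv1, Uqcrc1, Uqcrc2 and Atp5f1b. For Atp5f1a the lowest KO library lay just above the highest WT library, and the difference did not pass the test. Ndufab1, the acyl carrier protein, stood at 33.4, 44.7 and 51.0 CPM in WT at 4 h and at 54.0, 48.3 and 39.2 in KO, which also overlapped.

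Subunits of complex II did not move as a unit. Sdha stood at 87.0, 90.7 and 80.2 CPM in WT at 4 h and at 61.8, 75.7 and 49.0 in KO, without overlap (log2 difference -0.47 ± 0.21, adjusted p = 0.347 by edgeR). Sdhc, a membrane anchor, stood at 35.8, 60.6 and 62.5 CPM in WT at 4 h and at 82.4, 80.5 and 110 in KO (0.78 ± 0.24, adjusted p = 0.0861). Sdhd, the other anchor, stood at 10.2, 7.45 and 11.2 CPM in WT and at 19.3, 24.1 and 16.8 in KO (1.06 ± 0.45, adjusted p = 0.320). In WT, Sdhd had stood at 23.2, 17.2 and 23.0 CPM at 0 h, above all its 4 h libraries, a change that did not pass either (-1.13 ± 0.45, adjusted p = 0.0789). The anchors were thus above WT in all KO libraries and the flavoprotein below it. None of the 3 differences between genotypes passed edgeR's test with all libraries. The Sdhc difference was called by DESeq2, and by edgeR without KO 4 h A.

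At 0, 1 and 2 h edgeR called none of the 83 genes between genotypes, against 0.526%, 0.502% and 0.518% of all genes. At an unadjusted p under 0.05 there were 2 higher and 3 lower at 0 h (3.47% and 3.49% of all genes). There were 8 and 0 at 1 h (3.22% and 3.86%) and 10 and 0 at 2 h (4.05% and 3.24%). DESeq2 called 0, 1 and 1. Its shares of all genes are not given here, so these counts do not compare members with all genes. The members' median difference was 0.04 at 0 h, 0.16 at 1 h and 0.17 at 2 h, with 50, 70 and 65 genes above 0, against medians over all genes of 0.00, -0.01 and 0.00. Atp5f1b was the alpha or beta subunit that stood furthest apart before the chase, at 189, 181 and 181 CPM in WT and 271, 256 and 228 in KO at 0 h. Its groups did not overlap, and the difference of 0.46 ± 0.15 did not pass edgeR's test (adjusted p = 0.317).

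**Figure D3:**
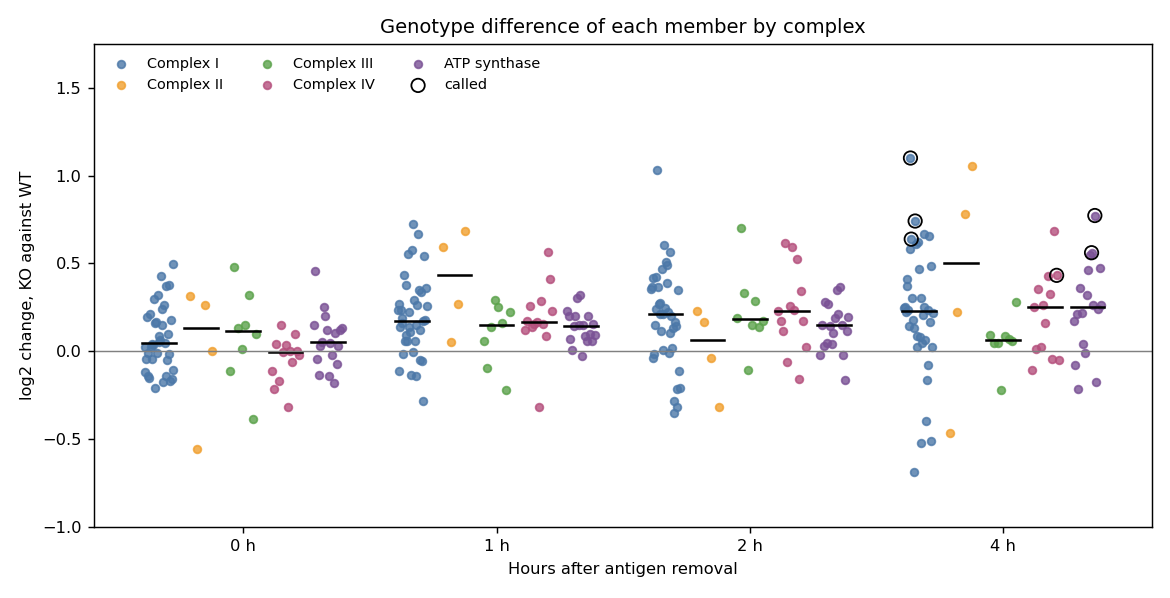
Log2 difference of KO against WT at 0, 1, 2 and 4 h for 81 respiratory chain genes (Cox7a1 and the low Atp5po entry are left out), by complex. Each point is a gene, black lines are medians of the points and ringed points passed edgeR's test. The median of the 83 tested genes is 0.04 at 0 h and 0.22 at 4 h, and the 6 called genes are all at 4 h.

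The chase was then compared with 0 h within each genotype. In WT, 13 of the 83 genes were called lower at 2 h and 19 at 4 h, and 0 were called higher, on the TMM scale. Among all genes 6.47% were lower and 3.58% higher at 2 h, and 9.97% and 6.76% at 4 h, on that scale. With library size as the only scaling the members' 4 h calls became 2 lower and 9 higher. Shares of all genes called with library size alone are not given here. The members' median change in WT was -0.31 at 2 h and -0.23 at 4 h, against 0.01 and 0.06 over all genes. Cytosolic ribosomal protein genes had 71 of 83 called lower at 2 h and 74 at 4 h, with medians of -0.51 and -0.68. Neutrophil markers were lower too, with 9 of 11 called at 4 h in WT and a summed level of 4642 ± 238 CPM at 0 h and 2636 ± 136 at 4 h. The part of these shifts in the members' change was not tested. With library size alone the all-gene medians rose to 0.26 and 0.38 and those of the members to -0.06 and 0.10, so the members lay below the all-gene median on either scale while the sign of their 4 h change depended on it. Of the single members described below, only Cox7a2l and Atp5if1 kept a 4 h call in WT with library size alone, and only Cox7a2l kept one as lower in KO.

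Complex IV held the largest share of the calls in WT. At 4 h 7 of its 14 tested genes were lower, against 6 of 38 in complex I, 0 of 4 in complex II, 1 of 8 in complex III and 5 of 19 in the ATP synthase, by TMM, and 2 of all these calls were kept with library size alone. Medians at 4 h were -0.47 for complex IV, -0.29 for the ATP synthase with 16 of 19 genes below 0, -0.03 for complex I, -0.10 for complex III and 0.14 for complex II. Complex IV summed to 3879, 4301 and 4191 CPM in WT at 0 h and to 3061, 2969 and 3066 at 4 h, which did not overlap. In KO it summed to 3913, 4196 and 3860 CPM at 0 h and to 3482, 3553 and 3534 at 4 h, which did not overlap either. Complex I in WT overlapped, at 2824, 3363 and 3195 CPM and then 2612, 2798 and 2859.

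Cox7a2l (ENSMUSG00000024248) encodes a relative of Cox7a that joins complexes III and IV into supercomplexes, and it had the largest called fall of all members. In WT it stood at 256, 338 and 285 CPM at 0 h, at 208, 209 and 207 at 1 h, at 148, 188 and 144 at 2 h and at 123, 91.3 and 99.1 at 4 h. In KO it stood at 274, 310 and 259 CPM at 0 h, at 231, 198 and 233 at 1 h, at 153, 133 and 143 at 2 h and at 92.7, 85.4 and 126 at 4 h. Each time point lay wholly below the one before it in each genotype, and WT and KO overlapped at each. From 0 to 4 h it fell by 1.49 ± 0.16 on the log2 scale in WT (edgeR, adjusted p = 2.28e-10) and by 1.47 ± 0.16 in KO (adjusted p = 2.77e-10). With library size alone it still fell, by 1.16 in WT and 1.10 in KO. Its 2 h and 4 h calls held under the 7 alternatives run and with each of the 24 libraries left out in turn.

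Atp5if1 (ENSMUSG00000054428) encodes the inhibitor that stops the ATP synthase from running in reverse, and it fell in each genotype. In WT it stood at 214, 219 and 227 CPM at 0 h, at 102, 118 and 132 at 2 h and at 93.0, 130 and 124 at 4 h. In KO it stood at 225, 244 and 216 CPM at 0 h, at 148, 133 and 143 at 2 h and at 140, 128 and 134 at 4 h. All libraries at 2 and 4 h lay below all libraries at 0 h, and the level at 4 h overlapped that at 2 h. At 1 h libraries were spread wider, at 212, 176 and 120 CPM in WT and 258, 146 and 180 in KO, where A lay above the 0 h libraries. From 0 to 4 h it fell by 0.93 ± 0.18 on the log2 scale in WT (edgeR, adjusted p = 8.41e-05) and by 0.77 ± 0.18 in KO (adjusted p = 0.000986). With library size alone the KO value was -0.40 and was no longer called (adjusted p = 0.0976), while WT was (-0.60, adjusted p = 0.0104).

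Subunit c forms the rotating ring of the ATP synthase and is made from 3 genes that give the same mature protein. Of these, Atp5mc2 was lower at 4 h in WT and KO, and Atp5mc1 and Atp5mc3 were not called. Atp5mc2 stood at 80.5, 83.0 and 94.0 CPM in WT at 0 h and at 62.4, 53.9 and 54.1 at 4 h, and at 97.2, 96.7 and 102 and then 55.4, 54.5 and 59.6 in KO. It fell by 0.60 in WT (edgeR, adjusted p = 0.0262) and by 0.80 in KO (adjusted p = 0.00181). Atp5mc1 stood at 89.7, 91.9 and 87.6 CPM in WT at 0 h and at 105, 98.7 and 106 at 4 h. Atp5mc3 stood at 380, 357 and 390 CPM in WT at 0 h and at 305, 377 and 365 at 4 h. Since no value of Atp5mc1 or Atp5mc2 was whole, the split of reads between these copies may bear on their levels. The difference between the copies was not tested.

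Several other members were called lower. Cox4i1, a core nuclear subunit of complex IV, stood at 401, 494 and 388 CPM in WT at 0 h and 316, 250 and 331 at 4 h, and at 378, 416 and 394 and then 261, 293 and 280 in KO. It fell by 0.52 in WT (edgeR, adjusted p = 0.00306) and by 0.51 in KO (adjusted p = 0.00316), with no overlap between 0 and 4 h. Uqcrh, the hinge protein of complex III beside cytochrome c1, stood at 410, 488 and 364 CPM in WT at 0 h, at 206, 358 and 220 at 2 h and at 281, 267 and 263 at 4 h, and fell by 0.64 at 4 h (adjusted p = 0.0017). In KO it started at 325, 343 and 297 CPM and stood at 319, 278 and 247 at 4 h, with overlap and no call. Uqcrfs1, the Rieske iron-sulfur protein, stood at 93.9, 111 and 82.2 CPM in KO at 0 h and at 54.4, 40.8 and 69.7 at 4 h, a fall of 0.80 ± 0.23 (adjusted p = 0.00895), and its change in WT was not called. Cox5a, a matrix-side subunit of complex IV, stood at 253, 256 and 306 CPM in WT at 0 h and at 201, 172 and 228 at 4 h, a fall of 0.44 (adjusted p = 0.0297) with no overlap, and was not called in KO.

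Ndufv3, a small subunit of the NADH-binding part of complex I, stood at 67.4, 95.2 and 120 CPM in WT at 0 h and at 65.6, 40.1 and 68.9 at 4 h, with overlap (log2 change -0.70 ± 0.23, edgeR, adjusted p = 0.0319). Atp5f1d, the delta subunit of the ATP synthase, stood at 183, 181 and 164 CPM at 0 h and at 114, 99.5 and 98.6 at 2 h (-0.76 ± 0.18, adjusted p = 0.00311). With library size alone this 2 h call was lost (-0.50, adjusted p = 0.0694). By 4 h Atp5f1d was at 109, 140 and 182 CPM, overlapped the 0 h group and was not called. Atp5f1c, the gamma subunit, fell by 0.52 ± 0.17 in KO at 2 h (adjusted p = 0.0457), from 102, 122 and 102 CPM to 73.6, 85.2 and 68.4, and stood at 97.6, 107 and 110 at 4 h. That KO call was lost when any 1 of the 24 libraries was left out and under 4 of 7 alternatives. In WT Atp5f1c was called lower at 2 h too (log2 change -0.60, edgeR, adjusted p = 0.0175). The WT call was lost with library size alone and with 5 of the 24 libraries left out in turn.

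**Figure D4:**
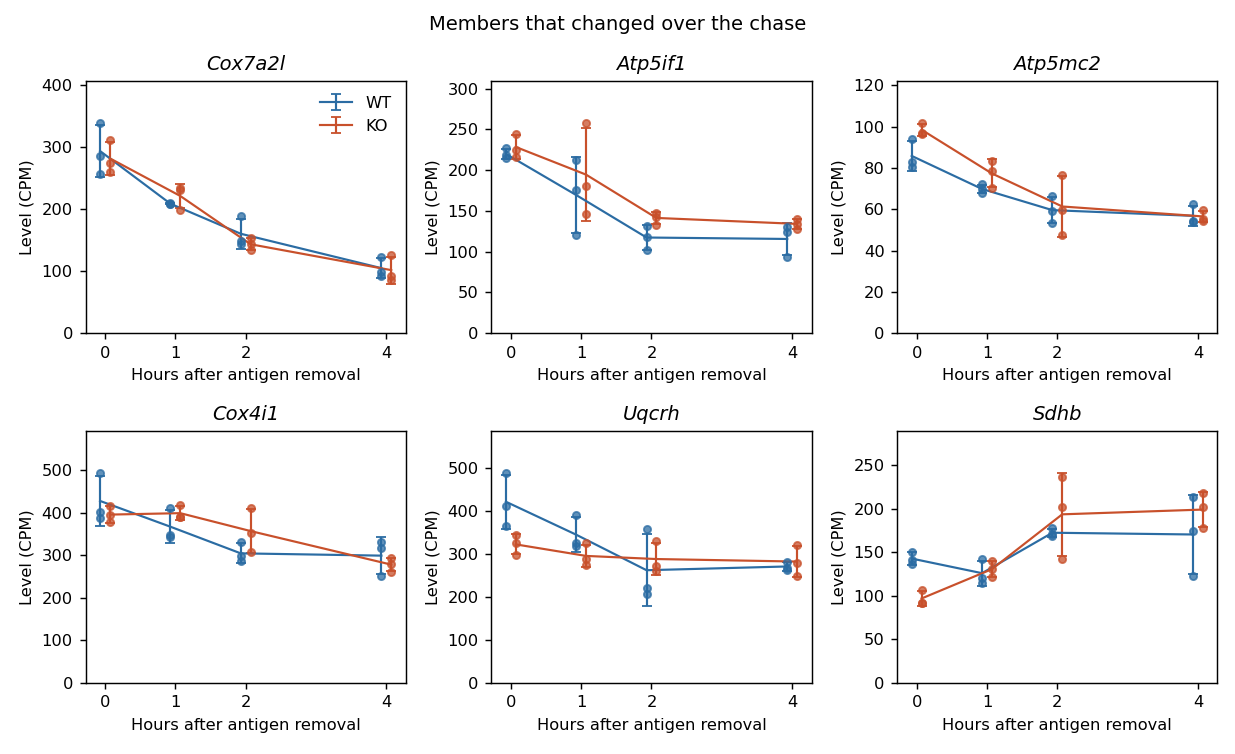
Levels in TMM-scaled CPM of Cox7a2l, Atp5if1, Atp5mc2, Cox4i1, Uqcrh and Sdhb against hours of chase, with points for libraries, lines through the means of 3 and SD bars. Cox7a2l goes from 256 to 338 CPM in WT at 0 h to 91.3 to 123 at 4 h, and with library size alone its log2 change is -1.16 in place of -1.49. Sdhb in KO goes the other way, from 91.7 to 107 CPM to 178 to 218.

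In KO, on the TMM scale, 6 of the 83 genes were called lower and 1 higher at 2 h (5.77% and 4.12% of all genes). At 4 h 8 were lower and 1 higher (10.6% and 7.45%). With library size alone these were 1 lower and 3 higher at 2 h and 1 lower and 21 higher at 4 h. Shares of all genes called with library size alone are not given here, so those counts do not compare members with all genes. The share of members called lower in KO at 4 h, 9.64%, was near that of all genes. Median changes were -0.18 at 2 h and -0.02 at 4 h, against 0.02 and 0.08 over all genes. With library size alone the all-gene medians were 0.23 and 0.45 and the members' medians 0.03 and 0.35.

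Sdhb, the iron-sulfur subunit of complex II, was the member that rose. In KO it stood at 92.1, 107 and 91.7 CPM at 0 h, at 121, 131 and 140 at 1 h, at 202, 142 and 237 at 2 h and at 218, 178 and 202 at 4 h. In WT it stood at 137, 141 and 151 CPM at 0 h, at 172, 178 and 169 at 2 h and at 214, 123 and 175 at 4 h. All KO libraries from 1 h on lay above all KO libraries at 0 h, and the WT libraries at 4 h overlapped those at 0 h. In KO the rise was 1.00 ± 0.17 at 2 h (edgeR, adjusted p = 3.07e-05) and 1.04 ± 0.17 at 4 h (adjusted p = 6.79e-06), and with library size alone it was 1.21 and 1.41. In WT the change to 4 h was 0.26 (adjusted p = 0.339), and with library size alone it was 0.58 and called (adjusted p = 0.0103). KO began below WT without overlap (-0.56 ± 0.17, adjusted p = 0.215), and the difference between the genotypes' changes to 4 h was 0.78 ± 0.24 and did not pass (adjusted p = 0.247). The rise is therefore called in KO, and a difference from WT was not shown.

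At 1 h edgeR called none of the 83 genes in WT or in KO, against 2.33% and 2.74% of all genes. At an unadjusted p under 0.05 there were 0 higher and 15 lower in WT (6.36% and 5.94% of all genes). In KO there were 1 higher and 3 lower (6.05% and 6.22%). DESeq2 called 2 in WT and 0 in KO, and its shares of all genes are not given here. Medians were -0.22 in WT and -0.05 in KO, against 0.00 over all genes in each.

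The change over the chase was compared directly between genotypes. None of the 83 genes was called for a difference of change to 1, 2 or 4 h by edgeR, against 0.0618%, 0.0773% and 0.193% of all genes. At an unadjusted p under 0.05 there were 3 higher and 0 lower to 1 h (2.09% and 2.5% of all genes). To 2 h there were 8 and 0 (3.59% and 2.94%), and to 4 h 14 and 4 (4.49% and 4.35%). DESeq2 called 0, 0 and 2, and its shares of all genes are not given here. The members' median difference of change was 0.14, 0.15 and 0.21. Nearest to the threshold at 4 h were Ndufb1 (0.95 ± 0.23, adjusted p = 0.0564) and Cox6c (0.74 ± 0.18, adjusted p = 0.0786), which were singled out after their values were seen. DESeq2 called both (adjusted p = 0.00242 and 0.00455), as did edgeR with library size alone and with no filter. Cox6c, a small subunit of complex IV, stood at 510, 599 and 483 CPM in WT at 0 h and 311, 390 and 397 at 4 h, and at 373, 467 and 440 and then 507, 493 and 476 in KO. WT fell without overlap while all KO libraries at 4 h lay above those at 0 h. So the larger number of members called lower in WT than in KO at 4 h, 19 against 8, was not matched by an edgeR call on the TMM scale for any one of them.

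**Figure D5:**
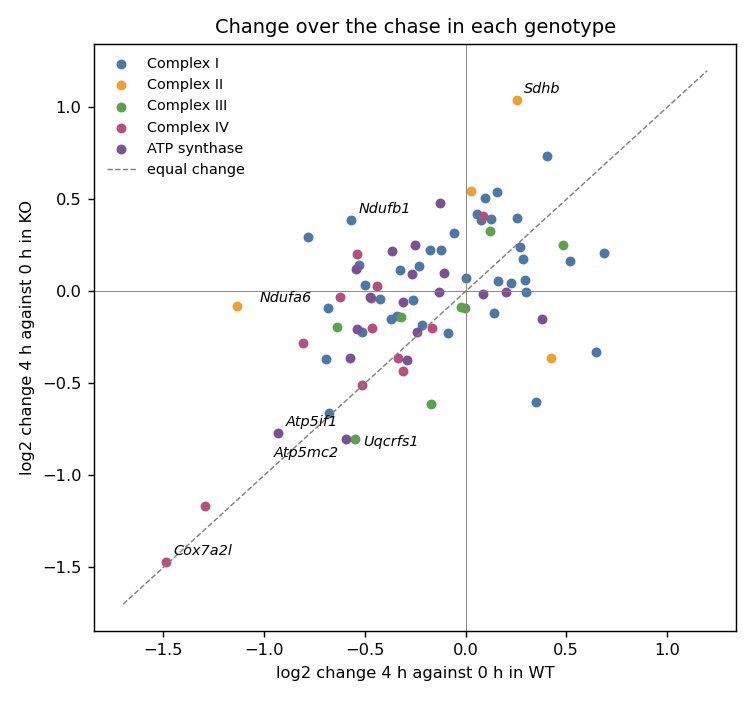
Log2 change from 0 to 4 h in KO against that in WT for 81 respiratory chain genes (Cox7a1 and the low Atp5po entry are left out), coloured by complex, with the line of equal change. Cox7a2l sits near -1.49 in WT and -1.47 in KO, and Sdhb at 0.26 and 1.04. Changes are on the TMM scale, and with library size alone the members' medians move from -0.23 to 0.10 in WT and from -0.02 to 0.35 in KO.

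The other genes of the pathway were read from 4 lists: 57 tested assembly factors, 17 electron carriers and entry enzymes, 28 regulators of mitochondrial biogenesis and 19 genes of the tricarboxylic acid cycle. Between genotypes, Cox17, the copper chaperone that supplies complex IV, was the 1 assembly factor called at 4 h, with 290 ± 58 CPM in KO against 146 ± 26 for WT (log2 difference 0.99 ± 0.19, edgeR, adjusted p = 0.00132). Leaving out the 2 shallowest KO libraries, the Cox17 difference was 0.60 and not called (adjusted p = 0.196). Dhodh, which passes electrons from pyrimidine synthesis to ubiquinone, was called lower in KO at 1 h (edgeR, adjusted p = 0.0413). It had 0 reads in all KO libraries at 1 h and 2.52 to 2.96 CPM in WT, at least 43.0-fold lower against 3 counts over the group. Dhodh stood at 4.10 ± 1.98 CPM in KO at 0 h and was not called between genotypes at 0, 2 or 4 h. Its levels were low, and its call was not followed under other settings. No other gene of these lists was called between genotypes at any time.

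Over the chase, calls at 4 h were counted out of 57 assembly factors, 17 carriers, 28 regulators and 19 cycle genes. Such small counts are not read as a result about the lists. In WT at 4 h 2 assembly factors were higher, 0 carriers, 2 regulators and 3 cycle genes, and 1 regulator was lower, where 6.76% of all genes were higher and 9.97% lower. In KO at 4 h 5 assembly factors, 1 carrier, 4 regulators and 1 cycle gene were higher, and 1 carrier and 1 regulator lower, beside 7.45% and 10.6% of all genes. Whether these lists differ from the subunits was not tested. Median changes for the 4 lists in that order were 0.46, 0.14, 0.57 and 0.21 in WT and 0.60, 0.43, 0.63 and 0.02 in KO on the TMM scale. Mdh2, the malate dehydrogenase of the cycle, rose from 162 ± 33 to 271 ± 30 CPM in WT (log2 change 0.75, edgeR, adjusted p = 0.000144) and from 177 ± 15 to 273 ± 30 in KO (0.63, adjusted p = 0.00127). Ssbp1, which binds single-stranded mitochondrial DNA, rose from 16.2 ± 3.4 to 57.7 ± 11.4 CPM in KO (1.83, adjusted p = 8.45e-05) and by 1.11 in WT (adjusted p = 0.0202). Hif1a, the hypoxia factor, rose by 0.52 in WT (adjusted p = 0.0453) and by 0.80 in KO (adjusted p = 0.00109). Sirt1, the deacetylase, fell by 1.01 in WT (adjusted p = 0.0292) and by 1.33 in KO (adjusted p = 0.00312). The WT calls of Ssbp1, Hif1a and Sirt1 were each lost with 4 of the 24 libraries left out in turn, all of them WT libraries at 0 or 4 h.

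The heptamer TATTTAT, an AU-rich core that TTP is known to bind, was searched on the transcript strand in annotated 3′ UTRs (GENCODE M21, GRCm38, which is not the authors' build). It was in 6 of the 81 members with a UTR (7.41%) and in 31.8% of 15392 genes of the table. Members had short UTRs, with a median longest UTR of 201 bases against 1163. The 6 sites are shown as the 23 bases around the heptamer, which is in capitals.
Ndufb8 (chr19:44549494-44549516, minus strand): attgtccgTATTTATgaaataag
Ndufs4 (chr13:114288695-114288717, minus strand): ctgtgcacTATTTATagtccatg
Ndufv2 (chr17:66078912-66078934, minus strand): aaaagcatTATTTATaaaaagaa
Sdhc (chr1:171127634-171127656, minus strand): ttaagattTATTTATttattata
Uqcrc2 (chr7:120659302-120659324, plus strand): tcagcaagTATTTATtaaatgct
Cox7a2 (chr9:79755440-79755462, minus strand): gggatcaaTATTTATtgatgtgt

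The site lay in 1 of 3 annotated transcripts with a UTR for Ndufb8, in 2 of 3 for Ndufs4, in 1 of 2 for Ndufv2 and Sdhc, and in the only one for Uqcrc2 and Cox7a2. None of these 6 genes was called in any comparison by the main edgeR fit, with all libraries and on the TMM scale. Sdhc was called higher in KO at 4 h by DESeq2, and by edgeR without KO 4 h A. Of the 6 genes called higher in KO at 4 h, 5 had an annotated UTR, none with TATTTAT, and Ndufb1 was not matched by its ID. Cox7a2, the liver-type form of Cox7a, stood at 215, 306 and 219 CPM in WT at 0 h and at 270, 264 and 250 at 4 h, and at 244, 281 and 215 and then 386, 303 and 294 in KO. Its KO libraries at 4 h lay above the WT libraries, a difference that did not pass the test.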

How the data were processed

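Total RNA of 24 libraries (8 groups of 3) was read as 3′ tags. The authors' deposited table holds expected counts, per the file headers, with no normalization, and 38.2% of the members' values were not whole. Tools named in the submitters' processing notes are STAR 2.7.10a, cutadapt 3.5 and SAMtools, and the build is GRCm39, with no role or order. Which annotation was counted is not given in the sources used here. Columns carry genotype, time and a letter, whereas the labels number replicates, so a column stands for some library of its group. The other 144 columns of per-sample values were not used here, and no labelled share or half-life is given.

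Counts were rounded and tested in R 4.3.3 with edgeR 4.0.16 (TMM factors, filterByExpr, 1 quasi-likelihood fit with a mean for each of the 8 groups). There were 4 genotype, 6 time and 3 difference-of-change contrasts. Calls used the threshold 0.05 on p adjusted by Benjamini and Hochberg over all 12936 tested genes. The method was tested on simulated data. DESeq2 1.42.0, other scalings, filters and sample sets were alternatives. Chi-square per degree of freedom between libraries of the same group was 29.5 to 77.2, so none repeated another. The table's reads carry no molecular identifiers, so the bound given for Dhodh covers counting error only.

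Members and gene lists were chosen with earlier results of these data known. Named were the members called between genotypes, the 4 largest called changes in each direction per time contrast, and a list of catalytic, core, subunit c, inhibitor and tissue-isoform genes. Other genes named were called members of the pathway lists, or chosen after their values were seen.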

Additional observations from a re-analysis of the deposited data

How the results depend on the processing

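No paired analysis was possible because the table's columns carry letters and the labels numbers, and nothing ties them to shared animals or cultures. Counts of members called between genotypes were as follows. The share of all genes called also moved with the setting and is not given here for each. These counts therefore do not compare members with all genes. At 1 h the count went from 0 to 1 with DESeq2 and without KO 4 h B and C, and lay between 0 and 1 when each library was left out (1 without WT 1 h A). At 2 h it went from 0 to 1 with DESeq2, with no filter and without KO 4 h B and C, and lay between 0 and 1 (1 without WT 2 h B). At 4 h it went from 6 to 12 with DESeq2, to 0 with only the compared groups and to 0 without KO 4 h B and C, and lay between 0 (leaving out KO 4 h B) and 11 (leaving out KO 4 h A), with 2 on leaving out WT 4 h A, WT 4 h B or KO 4 h C. In WT at 1 h the count went from 0 to 2 with DESeq2 and without KO 4 h B and C, and lay between 0 and 3 (3 without WT 1 h A). With library size as the only scaling it went from 13 to 4 in WT at 2 h, from 19 to 11 in WT at 4 h, from 7 to 4 in KO at 2 h and from 9 to 22 in KO at 4 h, where DESeq2 gave 14. Leaving out each library gave 7 (without WT 2 h A) to 14, 11 (without WT 0 h C) to 22, 3 (without KO 2 h A or KO 2 h B) to 6, and 7 to 11 for these 4 counts. The difference of change went from 0 to 2 at 4 h with DESeq2, library size alone and no filter, and lay between 0 and 1 at 2 h and between 0 and 2 at 4 h with each library left out. Over all settings, log2 changes of members called in a contrast kept the call 1458 times and lost it 216 times. Those of named members not called stayed so 334 times and were called 38 times, mostly Ndufb1 and Cox6c in the difference of change and Cox6b2 in WT. Called genes of the pathway lists that are printed, other than Dhodh, kept the call 263 times and lost it 16 times. No value in these 3 sets changed sign. The 26 genes without overlap at 4 h became 40 when KO 4 h A was left out. With fewer libraries this rule is easier to meet for any gene, and the share of all genes is not given here. The rise is therefore not read as a result about the members. Except where fewer samples were used, the cause of these shifts was not tested. Depth limits Cox6a2, Cox7a1 and the low Atp5po entry most.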
